A study of Mus musculus with 3 samples.

Results

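Heat shock positive graft TEa cells are CD4 T cells from a transplanted mouse heart in which at least 1 unique molecular identifier (UMI, the tag that marks 1 captured RNA molecule) of Hspa1a or Hspa1b was counted. They numbered 469 of the 3990 T cells kept from the heart library, a share of 11.8% (95% exact binomial interval 10.8 to 12.8%), and 10546 cells were kept from both wild-type libraries together. A barcode was kept with at least 1000 UMIs, 500 genes, at most 10% mitochondrial UMIs, at least 6 summed UMIs of Cd3d, Cd3e, Cd3g, Trac, Trbc1 and Trbc2, and at most 1 UMI of Lyz2. The 3521 heart cells that passed the same filter with neither Hspa1 gene are called negative cells and serve as the comparison. Members were thus chosen by their measured Hspa1a and Hspa1b counts, and the levels of those genes are given only as a description.

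The series used TEa cells, which carry a transgenic T cell receptor against an I-E alpha peptide of BALB/c mice and respond to BALB/c tissue. Naive, congenically marked wild-type TEa cells were transferred into C57BL/6 mice that then received BALB/c hearts. On day 7 the cells were sorted by flow cytometry from the graft (1 library) and from the spleen (1 library), and RNA was read from the 3' end with 10x Genomics chemistry. The remaining library, of Ldha-/- TEa cells from the spleen, was not analysed here. The number of animals behind each library is not given in the sources used here. Since positive and negative cells come from 1 library and cells are not replicates, no difference below was tested, and every interval covers counting error only.

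Hspa1a and Hspa1b encode the inducible cytosolic Hsp70, a chaperone that binds unfolded protein segments. In unstressed cells they are nearly silent. When misfolded protein accumulates, heat shock factor 1 is released from chaperones, binds heat shock elements (repeats of the unit GAA in alternating orientation) and switches on Hsp70 with its partners of the Hsp40, Hsp90 and Hsp110 families. Warming, hypoxia, proteotoxic drugs and tissue dissociation are known inducers of these genes, and T cell activation raises several chaperones as well. None of these was varied between the cells compared here.

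The promoters of the genes that defined the cells and of the chaperone genes Hsph1 and Hspe1 are shown because heat shock elements can be read in them directly. Each is the RefSeq sequence on GRCm38.p6 from 250 bases before to 50 bases after the annotated start, printed 5' to 3' along the gene. Capitals mark matches to the element cores GAANNTTC and TTCNNGAA, each of which reads the same on both strands, and overlapping matches run together.
Hspa1a: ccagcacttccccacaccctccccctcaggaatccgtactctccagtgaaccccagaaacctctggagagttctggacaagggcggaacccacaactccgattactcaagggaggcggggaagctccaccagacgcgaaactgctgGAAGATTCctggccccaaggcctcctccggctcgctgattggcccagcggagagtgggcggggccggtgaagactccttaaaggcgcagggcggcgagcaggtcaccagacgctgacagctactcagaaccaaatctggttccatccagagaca
Hspa1b: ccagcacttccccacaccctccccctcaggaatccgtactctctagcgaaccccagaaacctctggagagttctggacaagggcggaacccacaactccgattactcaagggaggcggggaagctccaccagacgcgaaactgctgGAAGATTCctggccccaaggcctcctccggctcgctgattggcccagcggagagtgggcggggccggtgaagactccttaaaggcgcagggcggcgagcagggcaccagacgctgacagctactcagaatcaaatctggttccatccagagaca
Hsph1: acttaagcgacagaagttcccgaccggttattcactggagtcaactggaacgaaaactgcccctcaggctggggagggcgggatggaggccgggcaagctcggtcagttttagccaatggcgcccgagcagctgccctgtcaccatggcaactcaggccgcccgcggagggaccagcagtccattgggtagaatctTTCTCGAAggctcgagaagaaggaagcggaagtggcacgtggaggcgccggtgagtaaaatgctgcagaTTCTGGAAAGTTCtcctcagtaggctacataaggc
Hspe1: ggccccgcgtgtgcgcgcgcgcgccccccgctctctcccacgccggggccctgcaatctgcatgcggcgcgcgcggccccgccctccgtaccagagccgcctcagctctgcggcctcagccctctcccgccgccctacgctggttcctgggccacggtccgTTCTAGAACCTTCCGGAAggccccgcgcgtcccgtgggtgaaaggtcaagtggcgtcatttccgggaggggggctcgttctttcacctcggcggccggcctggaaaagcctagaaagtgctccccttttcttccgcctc

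These windows lie at chr17:34972107-34972406 (Hspa1a, minus strand), chr17:34959189-34959488 (Hspa1b, minus strand), chr5:149636266-149636565 (Hsph1, minus strand) and chr1:55087898-55088197 (Hspe1, plus strand). The Hspa1a and Hspa1b windows differed at 4 of 300 positions (98.7% identity), and both hold the core GAAGATTC starting 104 bases before the start. Hsph1 holds a core 54 bases before its start and the overlapping cores TTCTGGAA and GAAAGTTC just after it, which together make a run of 3 units. Hspe1 holds 3 overlapping cores beginning 89, 84 and 79 bases before its start. The same stretch lies in the window of Hspd1 on the opposite strand (chr1:55087883-55088182), since the genes lie head to head.

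Across all 32851 promoters in the table, 15.1% hold at least 1 of the 2-unit cores and 0.603% hold a run of 3 units (GAANNTTCNNGAA or TTCNNGAANNTTC). Counted by gene, with a match in any window of the gene, a 2-unit core was present for 17.0% of 27025 genes. Among the 1916 with at least 50 CPM it was 14.6%. The member counts that follow are also by gene. Among the cytosolic chaperones described below, 23 of 28 have a promoter entry. A 2-unit core was present for 4 of the 8 that were at least 1.5-fold higher in positive cells and for 5 of the 15 that were not. Among immediate early genes it was present for 2 of 26. Chordc1, an Hsp90 co-chaperone, has 5 core matches and was 1.14-fold higher in positive cells, whereas Dnajb1 has none in either of its windows and was 1.95-fold higher. A match is a description of the letters in the window. The printed Hsph1 and Hspe1 windows are examples that hold matches. Hspe1 had a narrower ratio than Dnajb1, and Hsp90aa1 has no promoter entry.

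Most positive cells held very few Hspa1 molecules, and a minority held nearly all of them. The 244 cells with exactly 1 UMI made up 52.0% of the positive cells and 5.05% of their 4830 Hspa1 UMIs. The 79 cells with 2 or 3 UMIs held 3.66%, the 58 cells with 4 to 9 UMIs held 7.08%, and the 88 cells with 10 or more held 84.2%. The median was 1 UMI, the mean 10.3 and the highest 188 UMIs, and 26 cells held 50% of the molecules. In the cell richest in them by share, Hspa1 transcripts were 2.68% of all its UMIs.

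**Figure D1:**
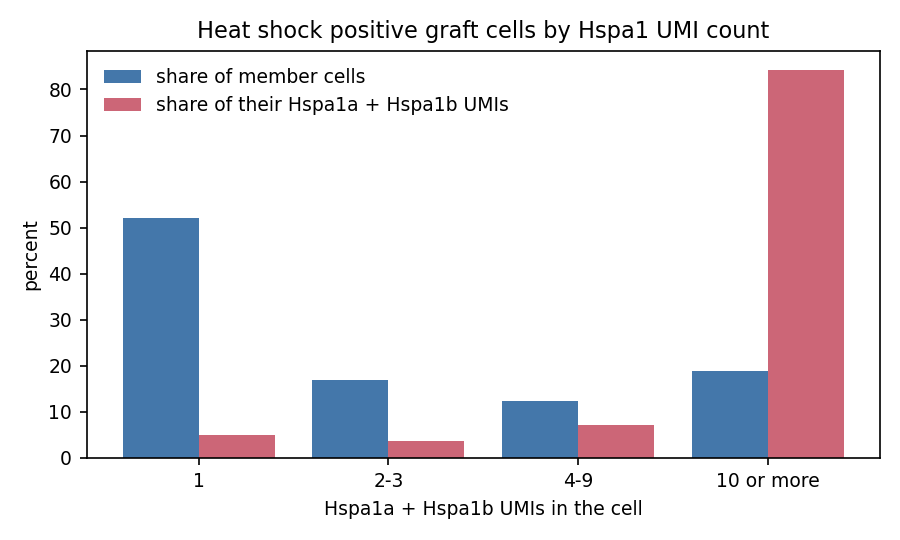
Share of the 469 heat shock positive graft cells (blue, left bar of each pair) and share of their 4830 summed Hspa1a and Hspa1b UMIs (red, right bar), in percent, by the number of such UMIs in the cell. Cells with 10 or more UMIs were 18.8% of the positive cells and held 84.2% of the UMIs.

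Hspa1a (ENSMUSG00000091971, chr17:34969190-34972156) gave 3058 UMIs and Hspa1b (ENSMUSG00000090877, chr17:34956436-34959238) gave 1772. In CPM, the UMIs of a gene summed over all cells of a group and scaled to an equal total per group, Hspa1a stood at 585 CPM in positive cells, at 0 in negative cells by the rule, and at 0.16 CPM in spleen cells. Hspa1b stood at 339 CPM in positive cells, at 0 in negative cells and at 0.18 CPM in spleen cells. Both genes were counted in 168 of the 225 cells with at least 2 Hspa1 UMIs (74.7%) and in 87 of the 88 cells with at least 10. The genes share 58.8% of the 50-base stretches of the Hspa1a transcript but none of those in its last 500 bases. How reads were divided between them upstream is not given in the sources used here, so the sum is used.

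Hspa1 UMIs were far more common in the heart library than in the spleen library. They were found in 11.8% of heart cells, against 17 of 6556 spleen cells of the same filter (0.259%, 0.151 to 0.415%), at median depths of 8244 UMIs in heart and 7989 UMIs in spleen. After each cell was thinned to 1000 UMIs the shares were 4.01% (160 cells, 3.42 to 4.67%) in heart and 0.03% (2 cells) in spleen. The highest count in a spleen cell was 2 UMIs, in 2 cells. With 1 library per tissue, the tissue, the library and the handling of each tissue cannot be told apart.

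RNA outside cells also carried Hspa1. Heart barcodes below 100 UMIs, too few for a cell, held 351 Hspa1 UMIs, or 219 CPM (242 of Hspa1a and 109 of Hspa1b), against 114 CPM in kept heart cells. Such barcodes of the spleen library held Hspa1a at 2.81 CPM and Hspa1b at 1.40 CPM. The macrophage transcript Lyz2 was at 238 CPM in the same heart barcodes and at 1.04 CPM in kept cells, a fraction of 0.436%, although kept cells were filtered on it. Over 9 monocyte genes including Lyz2 the fraction was 2.59%, and over the 8 without Lyz2 it was 4.30%. Single genes ranged up to 15.3% (Cd68), and kept cells can hold some of these transcripts of their own. Hspa1 carried over at these fractions would amount to 40 UMIs (Lyz2), 240 UMIs (9 genes), 398 UMIs (8 genes) or 1419 UMIs (Cd68) of the 4830 counted, so the amount was not fixed by these genes. Whether a cell with 1 UMI had made the transcript was not tested, and values are therefore also given by UMI class.

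Receptor segments of the transferred TEa cells took similar shares in positive and negative cells, with overlapping intervals. Among Trbv UMIs, the TEa beta chain segment Trbv19 accounted for 87.0% in positive cells (81.2 to 91.5%) and 87.8% in negative cells (86.0 to 89.5%). Trav14 made up 81.4% of Trav UMIs (77.5 to 84.9%) in positive and 78.4% (76.9 to 79.8%) in negative cells. Cd4 stood at 133 CPM in positive and 145 CPM in negative cells, and the 12 T cell markers summed to 12650 CPM in positive and 13719 CPM in negative cells. The lowest number of T cell receptor and CD3 UMIs in any positive cell was 8, so none lay at the limit of 6. Just outside the rule lay 1 barcode that held Hspa1 and 2 Lyz2 UMIs. Inside it, 8 positive cells (1.71%) and 36 negative cells (1.02%) held a single Lyz2 UMI.

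Depth and RNA quality differed little between the groups. The median was 8222 UMIs in positive and 8247 UMIs in negative cells, the median number of genes was 2120 in positive and 2154 in negative cells, and the median mitochondrial share was 3.21% in positive and 3.09% in negative cells. Ribosomal protein genes took 29.4% of UMIs in positive and 29.8% in negative cells. Cells of over 3 times the library's median depth were 6.61% of positive and 4.88% of negative cells. The deepest positive cell held 69749 UMIs, 4 of them of Hspa1, and results that rest on it are given with and without it. No barcode of a positive cell was kept in the spleen library, and doublets were not called.

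For most other cell types the markers summed to similar levels in both groups. The 15 monocyte or macrophage markers summed to 393 CPM in positive and 352 CPM in negative cells, nearly all of it Ctss and Cst3. Without 1 positive cell of 21522 UMIs, which held 399 of these UMIs beside 74 T cell UMIs, the positive sum was 318 CPM. Gamma delta T cell markers summed to 394 CPM in positive and 401 CPM in negative cells, nearly all of it Trdc, a constant segment found in 55.7% of positive and 57.7% of negative cells. B cell markers summed to 49.7 CPM in positive and 44.4 CPM in negative cells, and dendritic cell markers to 3.64 and 2.18 CPM in positive and in negative cells. Cardiomyocyte, fibroblast, platelet, neutrophil, erythroid and NK cell markers each summed to under 1 CPM in positive cells. The NK cell and the erythroid list each stood at 0.574 CPM (0.118 to 1.68) in positive and 0 CPM (0 to 0.0993) in negative cells. Neutrophil markers were at 0.574 CPM in positive and 1.16 CPM in negative cells. Plasma cell markers were at 1.34 CPM in positive and 0.619 CPM in negative cells. Myh6, Actc1, Tnnt2, Dcn, Col1a2, S100a8, Ly6g, Klra8 and Alas2 were at 0 in positive cells. In the NK cell list and in the erythroid list only 4 of 6 genes were at 0 there.

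Beyond the genes of the rule, positive cells differed from negative cells in a small set of genes, nearly all of them higher. Of 2459 genes with at least 50 CPM in either group, 57 (2.32%) were at least 1.5-fold higher in positive cells and 4 (0.163%) at least 1.5-fold lower. Of the 57, 23 reached 50 CPM in positive cells alone and could only be counted as higher. Among the 2346 genes with at least 50 CPM in negative cells, 34 (1.45%) were higher and 4 (0.171%) lower. When every cell was thinned to 1000 UMIs, 137 were higher and 87 lower. At the floor of 10 CPM used for gene lists, 177 of 6386 genes (2.77%) were higher and 19 (0.298%) lower, with a median log2 ratio of -0.00. There, 59 of the 177 reached the floor in positive cells alone, and with the floor set on negative cells 118 of 6140 (1.92%) were higher and 19 (0.309%) lower. Of those 6140 genes, 2907 had a ratio above 1. These shares of all genes are the background of every list count below. For the lists below, where that floor changes the number of higher members, the new count or the members concerned are given. These counts use log2 of (CPM + 1) in positive over (CPM + 1) in negative cells, which understates differences of low genes. Of the 57 higher genes, 8 belonged to chaperone lists and 20 to the immediate early, integrated stress response or NF-kB lists. Another 5 belonged to the proliferation list, 10 to other lists and 14 to none. Fos, Jun, Egr1, Nr4a1, Ppp1r15a and Hsph1 are among those that reached 50 CPM in positive cells alone. The split was not repeated for the 34 genes, and the share of each list among all genes was not counted, so it describes the 57 only.

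Cytosolic chaperones were the first group. Of 35 listed genes 28 reached 10 CPM. Of these, 10 were at least 1.5-fold higher in positive cells and 0 lower, against 2.77% and 0.298% of all genes, and the median log2 ratio was 0.34. Dnajb4, Bag3 and Hspa2 reached the floor in positive cells alone, and of the 25 members at 10 CPM in negative cells 7 were higher and 0 lower, with a median log2 ratio of 0.27. The summed level of the list was 11253 CPM in positive cells, 7627 CPM in negative cells and 4841 CPM in spleen cells. Hspb8 and Hspa1l were at 0 in positive cells, and the other 5 below the floor were low in both groups.

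Hsph1 (Hsp110, the nucleotide exchange partner of Hsp70, chr5:149614287-149636376) stood furthest apart. It was at 193 CPM (95% Poisson interval 181 to 205) in positive cells, 46.3 CPM (44.1 to 48.5) in negative cells and 35.3 CPM in spleen cells, a 4.17-fold difference between positive and negative cells (3.86 to 4.51). An Hsph1 UMI was present in 59.3% of positive and 30.3% of negative cells, and after thinning in 17.3% of positive and 4.46% of negative cells. Hsp90aa1, the inducible cytosolic Hsp90 (chr12:110690605-110702728), was at 1407 CPM in positive cells, 493 CPM in negative cells and 331 CPM in spleen cells, 2.85-fold higher (2.77 to 2.93). Both ratio intervals lie clear of 1, but they cover counting error only and not the spread between cells.

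The Hsp40 proteins, which deliver substrates to Hsp70, split. Dnajb1 stood at 184 CPM in positive and 94.5 CPM in negative cells (1.95-fold, 1.81 to 2.09), and Dnaja1 at 1328 and 707 CPM in positive and in negative cells (1.88-fold, 1.83 to 1.93). Dnajb4, low in both, was at 10.7 CPM in positive and 6.00 CPM in negative cells. Dnaja2 differed by less than counting error, with 188 CPM in positive and 187 CPM in negative cells, and Dnajb6 was at 343 CPM in positive and 376 CPM in negative cells.

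Among Hsp70 relatives and co-chaperones the differences were smaller. Hspa8, the constitutive cytosolic Hsc70, was at 3491 CPM in positive and 2686 CPM in negative cells (1.30-fold, 1.28 to 1.32). Hsp90ab1, the constitutive Hsp90, was at 2406 CPM in positive and 1583 CPM in negative cells (1.52-fold, 1.49 to 1.55). Ahsa1, which activates the Hsp90 ATPase, was at 131 CPM in positive and 81.5 CPM in negative cells (1.61-fold, 1.48 to 1.75). Hspa4l, Bag3 and Hspa2 were also past 1.5-fold, at 41.7, 12.1 and 12.4 CPM in positive and 26.4, 5.92 and 7.27 CPM in negative cells. Bag3, a co-chaperone that couples Hsp70 to selective autophagy, is a well-known heat shock target, and at these counts its interval ran from 1.51 to 2.70-fold. Without the 21522-UMI cell Hspa2 was at 11.1 CPM in positive cells and no longer past 1.5-fold.

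The remaining cytosolic members were within 1.5-fold. Cacybp lay just below that limit at 215 CPM in positive and 143 CPM in negative cells. Fkbp4, an Hsp90 immunophilin, was at 106 CPM in positive and 78.2 CPM in negative cells, and Stip1, the adaptor between Hsp70 and Hsp90, at 73.5 CPM in positive and 60.9 CPM in negative cells. Chordc1, Ptges3, St13, Ahsa2, Fkbp5, Hspbp1, Stub1 and Hspa4 had ratios between 1.05 and 1.30. Cdc37, Bag1, Hspb11 and Hspa13 had ratios below 1, of 0.958, 0.924, 0.990 and 0.798. Hsf1, the heat shock factor itself, was at 7.84 CPM in positive and 8.18 CPM in negative cells. Of 5 heat shock factor genes only Hsbp1, which binds Hsf1, reached the floor, at 95.3 CPM in positive and 109 CPM in negative cells.

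In the mitochondrial list 2 of the 7 members at the floor were past 1.5-fold. These were Hspd1 and Hspe1, the Hsp60 and Hsp10 of the mitochondrial chaperonin, which stood at 305 and 573 CPM in positive cells and at 157 and 340 CPM in negative cells, ratios of 1.95 (1.84 to 2.06) and 1.69 (1.62 to 1.75). Hspa9, the mitochondrial Hsp70, was at 52.8 CPM in positive and 42.6 CPM in negative cells. Of 13 subunits of the cytosolic chaperonin and prefoldin, 0 were past it in either direction (median log2 ratio 0.06).

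In the endoplasmic reticulum list 2 of 20 were higher, Dnajb9 at 44.0 CPM in positive and 24.8 CPM in negative cells and the low gene Hyou1, at 11.3 CPM in positive and 7.08 CPM in negative cells. Hyou1 reached the floor in positive cells alone and was within 1.5-fold without 1 cell. Hspa5 (BiP), the main chaperone of that compartment, was at 572 CPM in positive and 416 CPM in negative cells (1.37-fold). The proteasome subunit Psmb4 was at 243 CPM in positive and 270 CPM in negative cells. Of 11 oxidative stress genes 0 were past 1.5-fold.

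**Figure D2:**
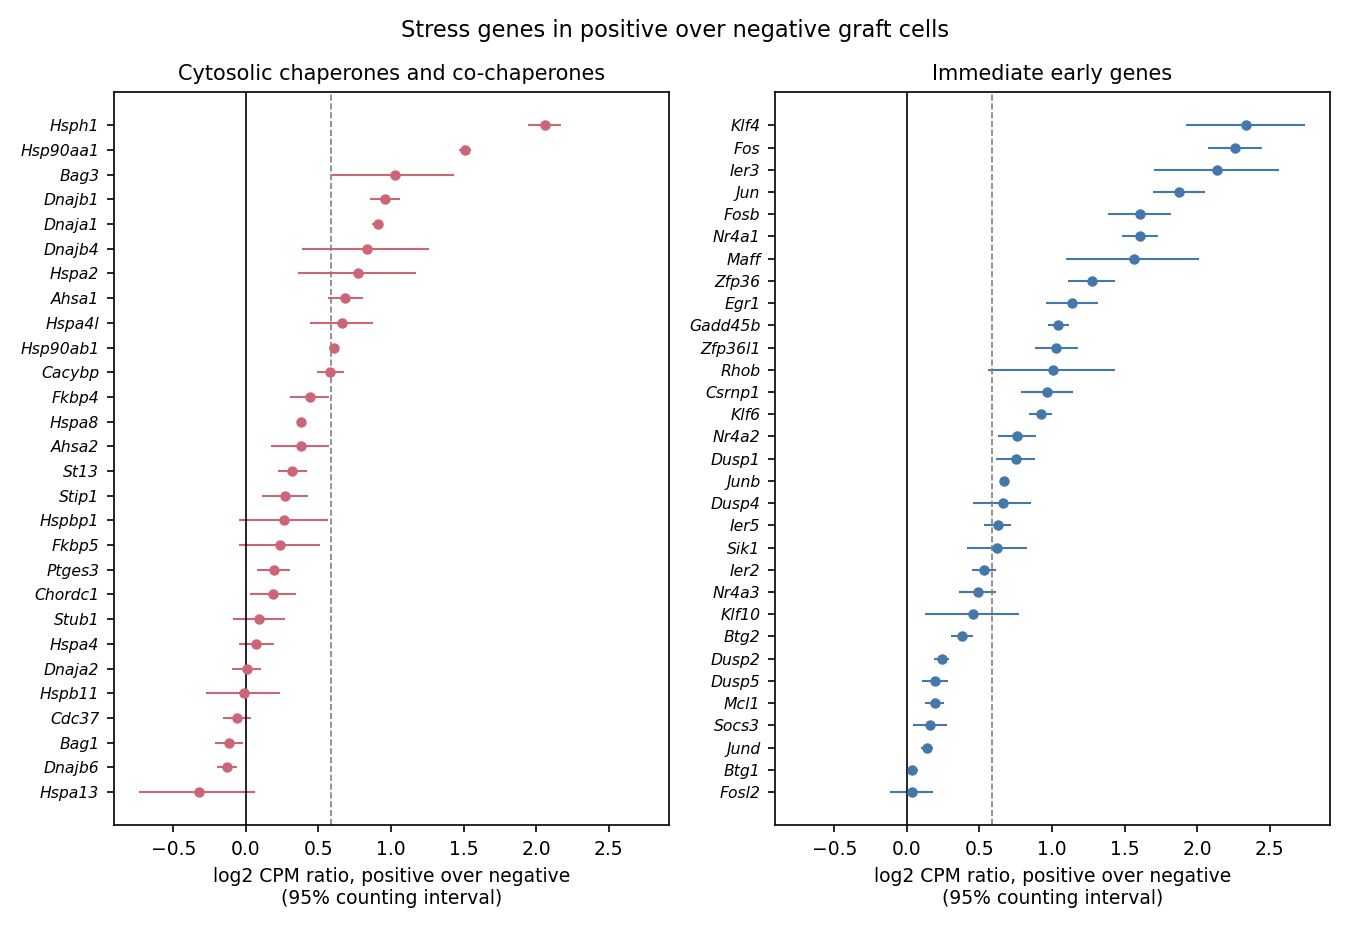
Log2 ratio of summed CPM in heat shock positive over negative graft cells for the 28 cytosolic chaperones and the 31 immediate early genes with at least 10 CPM in either group, with 95% counting intervals. The solid line marks equal levels and the dashed line 1.5-fold. Hsph1 and Hsp90aa1 lead the chaperones, 5 of which lie below 0, while all 31 immediate early genes lie above 0. Of the genes shown, 3 chaperones and 4 immediate early genes reached 10 CPM in positive cells alone.

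Immediate early genes, which are transcribed within minutes of a stimulus without new protein synthesis, made the second group. Of 35 listed genes 31 reached 10 CPM. Of these, 20 were at least 1.5-fold higher in positive cells and 0 were lower, against 2.77% and 0.298% of all genes. All 31 had a ratio above 1, with a median log2 ratio of 0.74. Klf4, Ier3, Maff and Rhob reached the floor in positive cells alone. Of the 27 members at 10 CPM in negative cells 16 were higher and 0 were lower, against 1.92% and 0.309% of all genes. All 27 had a ratio above 1, against 2907 of 6140 genes, with a median log2 ratio of 0.64. The list summed to 8393 CPM in positive cells, 6109 CPM in negative cells and 2825 CPM in spleen cells.

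Gadd45b and Nr4a1 were named as markers of these cells with earlier results known. Gadd45b, a stress-induced regulator of p38 signalling (chr10:80930073-80932204), was at 379 CPM (363 to 396) in positive cells, 184 CPM (180 to 188) in negative cells and 14.9 CPM in spleen cells, 2.06-fold higher (1.96 to 2.17). Its UMIs were in 77.2% of positive and 61.0% of negative cells, so the gene was common in both. Nr4a1, an orphan nuclear receptor induced by T cell receptor signalling (chr15:101254269-101274795), was at 145 CPM (135 to 156) in positive cells, 47.6 CPM (45.4 to 49.9) in negative cells and 17.0 CPM in spleen cells, 3.04-fold higher (2.79 to 3.31). It was detected in 55.7% of positive and 28.7% of negative cells.

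Fos and Jun, components of the AP-1 transcription factor, had wider ratios than these markers, and Junb had a narrower one. Fos was at 75.6 CPM in positive cells, 15.8 CPM in negative cells and 7.02 CPM in spleen cells (4.79-fold, 4.21 to 5.45). Jun was at 75.0 CPM in positive, 20.4 CPM in negative and 3.36 CPM in spleen cells (3.67-fold, 3.24 to 4.15). Junb was at 2046 CPM in positive and 1286 CPM in negative cells (1.59-fold), and Fosb at 48.8 CPM in positive and 16.0 CPM in negative cells. Fos remained a minority transcript, found in 27.1% of positive and 8.86% of negative cells.

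Other members varied in size. Egr1 stood at 64.5 CPM in positive and 29.3 CPM in negative cells, Klf6 at 309 CPM in positive and 163 CPM in negative cells, and Dusp1, a phosphatase that limits MAP kinases, at 102 CPM in positive and 60.9 CPM in negative cells. Klf4, Ier3 and Maff had wide ratios at low levels, with 16.8, 14.3 and 11.3 CPM in positive and 3.34, 3.26 and 3.82 CPM in negative cells. Nr4a2 was at 118 CPM in positive and 69.6 CPM in negative cells, while Nr4a3 was within 1.5-fold at 111 CPM in positive and 79.4 CPM in negative cells.

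The integrated stress response, which lowers translation under stress, had 6 of 12 genes at the floor. Of these 4 were past 1.5-fold, against 2.77% of all genes. Atf3 reached the floor in positive cells alone, and of the other 5 genes 3 were past 1.5-fold. Ppp1r15a (GADD34), the feedback phosphatase subunit of this pathway, was at 91.1 CPM in positive and 43.2 CPM in negative cells (2.11-fold, 1.90 to 2.34). Ddit3 (CHOP) was at 51.7 CPM in positive and 33.0 CPM in negative cells, and Ddit4 at 50.9 CPM in positive and 30.0 CPM in negative cells. Atf3 was at 16.1 CPM in positive and 2.64 CPM in negative cells (6.09-fold, 4.50 to 8.24), and was detected in 8.32% of positive and 1.99% of negative cells.

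Of 17 NF-kB factors and feedback genes 5 were higher, against 2.77% of all genes. The inhibitor Nfkbia was at 565 CPM in positive and 293 CPM in negative cells (1.93-fold, 1.85 to 2.01), and Nfkbid at 88.0 CPM in positive and 37.6 CPM in negative cells (2.34-fold). Rel, a subunit of the factor itself, was at 170 CPM in positive and 101 CPM in negative cells. The list's median log2 ratio was 0.04. Of 12 messenger RNA decay factors 4 were higher: Zfp36, Zfp36l1, Tob1 and Tob2. Zfp36 and Zfp36l1 also belong to the immediate early list and were counted there too. Zfp36, which destabilises cytokine transcripts, was at 81.9 CPM in positive and 33.9 CPM in negative cells (2.42-fold, 2.16 to 2.70).

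Some T cell effector genes were higher in positive cells and others were not. Of 12 cytokine and chemokine genes at the floor 6 were past 1.5-fold, against 2.77% of all genes. Of the 9 at 10 CPM in negative cells 4 were, against 1.92%. Ifng was at 279 CPM (265 to 294) in positive cells, 68.1 CPM (65.5 to 70.8) in negative cells and 16.0 CPM in spleen cells, a 4.09-fold difference (3.84 to 4.37). Ifng UMIs were found in 51.8% of positive and 26.6% of negative cells, and after thinning in 19.8% (16.3 to 23.7%) and 5.28% (4.57 to 6.07%) of positive and of negative cells. Read the other way, 20.6% of the 1179 heart cells with an Ifng UMI were heat shock positive, against 8.04% of the 2811 heart cells without one. Ifng was also present outside cells, at 119.5 CPM in heart barcodes below 100 UMIs and 94.1 CPM in kept heart cells, so a single UMI does not show that a cell made it.

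Tnf was at 23.3 CPM in positive and 9.53 CPM in negative cells (2.45-fold, 1.98 to 3.02). The chemokine Ccl4 was at 206 CPM in positive and 17.9 CPM in negative cells, but 70.8% of its UMIs in positive cells came from 1 cell of 29849 UMIs. Without that cell Ccl4 was at 60.6 CPM. The same cell held 36.2% of the Ccl3 UMIs, and Ccl3 was at 28.5 CPM with it and 18.3 CPM without it, against 2.15 CPM in negative cells. Ccl4 was detected in 11.9% of positive and 5.28% of negative cells.

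Il10 was at 43.0 CPM in positive and 24.5 CPM in negative cells (1.76-fold, 1.51 to 2.03), with an equal share of cells, 11.7% in each. Ccl5 was at 509 CPM in positive and 526 CPM in negative cells, and Il2 at 6.12 CPM in positive and 6.19 CPM in negative cells. Cytokine genes thus differed among themselves in direction and size.

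Activation genes were also mixed, with 5 of 14 past 1.5-fold, against 2.77% of all genes, and a median log2 ratio of 0.15. Irf4 reached the floor in positive cells alone. Of the 13 members at 10 CPM in negative cells 4 were past 1.5-fold, with a median log2 ratio of 0.12. Cd69, an early activation and retention molecule, was at 202 CPM in positive and 111 CPM in negative cells (1.83-fold, 1.71 to 1.96). Irf4, a factor whose level follows receptor signal strength, was at 19.7 CPM in positive and 6.70 CPM in negative cells, and Cd40lg at 44.0 CPM in positive and 28.0 CPM in negative cells. Irf8 was past 1.5-fold at 58.0 CPM in positive and 31.2 CPM in negative cells, but 21.1% of its UMIs came from the 21522-UMI cell that also held monocyte markers, and without that cell it was at 45.9 CPM and within 1.5-fold. Without the 1 cell richest in the gene, Cd40lg was also within 1.5-fold at 42.3 CPM, as was Il2ra of this list at 37.4 CPM. The activation list as a sum was lower in positive cells, at 2576 CPM, than in negative cells, at 2845 CPM.

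Cytotoxic, residency and stem-like genes differed little. Gzmb was at 339 CPM in positive and 336 CPM in negative cells (1.01-fold, 0.960 to 1.06), and Gzmk at 99.9 CPM in positive and 121 CPM in negative cells. Heat shock positive cells were 11.2% (9.48 to 13.1%) of the heart cells with Gzmb, an interval that overlaps that of the cells without it (10.8 to 13.3%), and 10.1% of the cells with Gzmk and 12.8% of those without. Itgae, the alpha E integrin of tissue-resident cells, was at 52.2 CPM in positive and 59.7 CPM in negative cells, and positive cells were 10.6% of the cells with it and 12.3% of those without. Tcf7, a regulator of stem-like T cells, was at 80.5 CPM in positive, 77.6 CPM in negative and 441 CPM in spleen cells, and positive cells were 13.0% of the Tcf7 cells and 11.1% of the others.

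The T cell state lists had few members past 1.5-fold. In the residency list 1 of 16 was higher (Klf2, at 81.9 CPM in positive and 52.9 CPM in negative cells), in the naive and stem-like list 1 of 14 (Id3, at 14.7 CPM in positive and 5.01 CPM in negative cells) and in the Treg list 1 of 8 (Il2ra, at 42.5 CPM in positive and 27.4 CPM in negative cells). In the cytotoxic list it was 1 of 10, Klrc1, whose direction was the opposite after thinning. The Klf2, Klrc1 and Il2ra calls each rested on 1 cell: without the cell richest in the gene the positive level was 77.5 CPM for Klf2, 15.8 CPM for Klrc1 and 37.4 CPM for Il2ra, all within 1.5-fold. Id3 reached the floor in positive cells alone. Of 7 inhibitory receptors and 6 Tfh genes 0 were past 1.5-fold, and of 14 Th1 genes 1 was higher and 1 lower. Foxp3 was at 2.68 CPM in positive and 2.85 CPM in negative cells. Of 15 survival and death genes 1 was higher, the BH3-only gene Pmaip1, at 22.4 CPM in positive and 13.8 CPM in negative cells, and within 1.5-fold at 20.7 CPM without the 21522-UMI cell.

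**Figure D3:**
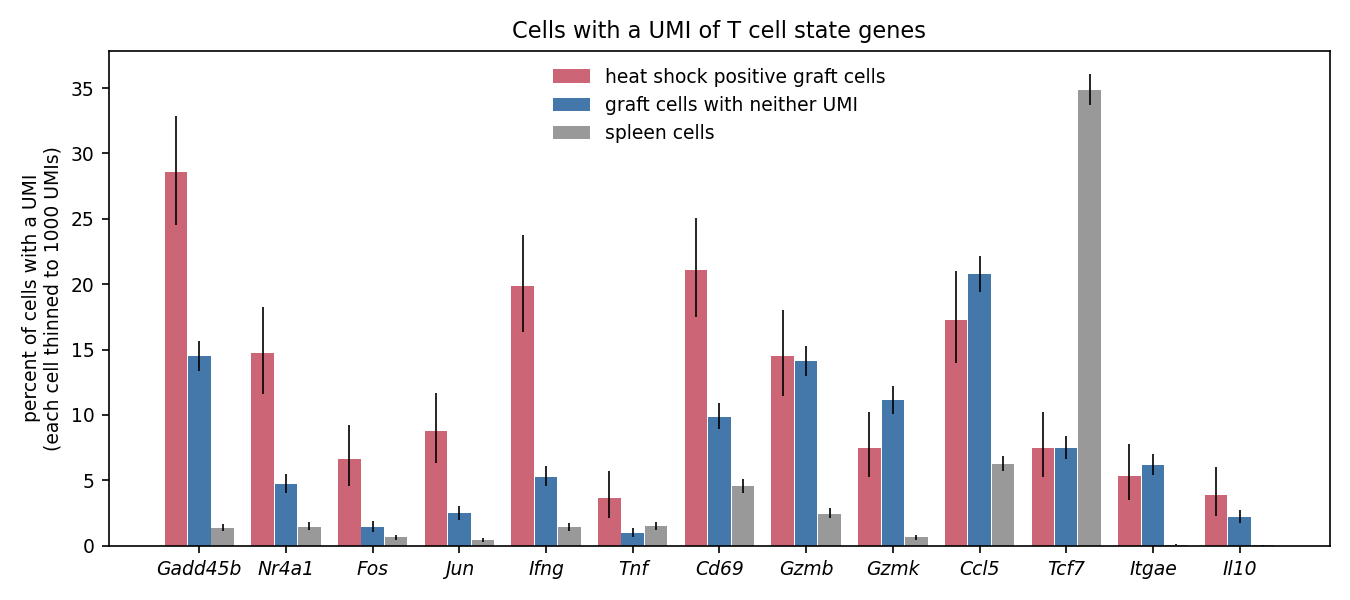
Percent of cells with a UMI of each gene after every cell was thinned to 1000 UMIs, in heat shock positive graft cells (red, left), negative graft cells (blue, middle) and spleen cells (grey, right), with exact 95% binomial intervals. Ifng was found in 19.8% of positive, 5.28% of negative and 1.42% of spleen cells, while Gzmb was found in 14.5% of positive and 14.1% of negative graft cells.

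Genes that were lower in positive cells were few and the differences modest. The 4 past 1.5-fold were Ramp3, at 44.2 CPM in positive and 76.6 CPM in negative cells, Fam46a at 62.4 CPM in positive and 107 CPM in negative cells, Gimap7 at 79.0 CPM in positive and 120 CPM in negative cells, and Sdcbp2 at 78.6 CPM in positive and 119 CPM in negative cells. Without the 69749-UMI cell 2 of these, Gimap7 and Sdcbp2, lay just inside 1.5-fold. Close to that limit stood the inhibitory receptor Pdcd1, at 162 CPM in positive and 244 CPM in negative cells (0.666-fold, 0.620 to 0.715), and the costimulatory receptor Icos, at 715 CPM in positive and 992 CPM in negative cells (0.721-fold, 0.697 to 0.746). Cd27 and Il7r were also lower, with ratios of 0.723 and 0.730. Gimap7 belongs to a family of lymphocyte GTPases linked to T cell survival.

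Pdcd1 was found in 45.2% of positive and 54.0% of negative cells and Il7r in 47.5% of positive and 52.3% of negative cells. Il12rb2, a subunit of the IL-12 receptor, was at 18.7 CPM in positive and 30.4 CPM in negative cells. Tbx21, the Th1 master regulator in the same list, stood on the other side at 37.3 CPM in positive and 21.4 CPM in negative cells (1.74-fold, 1.48 to 2.04).

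Proliferation genes were moderately higher, and how many passed 1.5-fold rested on 1 cell. Of 24 members 6 were past 1.5-fold and 23 above 1, with a median log2 ratio of 0.37. All 24 reached the floor in negative cells, where 1.92% of all genes were higher and 2907 of 6140 were above 1. Without the 69749-UMI cell 1 was past 1.5-fold (Cdc20) and 23 were above 1, with a median of 0.34, and after thinning the log2 ratio of Cdc20 was -0.81. Mki67 was at 154 CPM in positive and 102 CPM in negative cells, Rrm2 at 124 CPM in positive and 78.7 CPM in negative cells, and Cdk1 at 60.3 CPM in positive and 38.3 CPM in negative cells. Cells were called cycling when the thinned UMIs of 10 cycling markers reached 2, and such cells were 15.4% (12.2 to 18.9%) of positive, 10.3% (9.27 to 11.3%) of negative and 2.67% of spleen cells. The cell cycle inhibitor Cdkn1a (p21) was higher too, at 115 CPM in positive and 61.4 CPM in negative cells (1.87-fold, 1.71 to 2.05), as were Gadd45a and Gadd45g of the same list, 3 of 11 members in all, although Gadd45a and Gadd45g reached the floor in positive cells alone. Without cycling cells, 11 cytosolic chaperones and 20 immediate early genes were past 1.5-fold.

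Metabolic genes were close to equal. Of 18 glycolysis genes 1 was past 1.5-fold, the hexokinase Hk2, at 51.8 CPM in positive and 28.6 CPM in negative cells. Ldha was at 987 CPM in positive and 1060 CPM in negative cells (0.931-fold, 0.904 to 0.959), and at 481 CPM in spleen cells. Of 20 oxidative phosphorylation genes 0 were past 1.5-fold, with a median log2 ratio of -0.04. Among 11 further targets of hypoxia-inducible factors 1 was past it, the low gene Ankrd37, which reached the floor in positive cells alone. The interferon response list had 0 higher and 1 lower member of 14. That member was Ifit1, at 12.8 CPM in positive and 21.5 CPM in negative cells, with 43.3% of its positive UMIs in 1 cell and 7.29 CPM without it.

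The chaperone sum was graded with the number of Hspa1 molecules, but not every chaperone was. From 0 through 1, 2 to 3, 4 to 9 and 10 or more Hspa1 UMIs per cell, the cytosolic chaperone sum without the Hspa1 pair was 7627, 9192, 10524, 13450 and 15584 CPM. Hsp90aa1 was at 493, 790, 1173, 1866 and 2830 CPM over the same classes and Hsph1 at 46.3, 77.5, 114, 255 and 504 CPM, and for both genes the counting intervals of neighbouring classes did not overlap. Dnajb1 was at 94.5, 111, 128, 227 and 385 CPM, so that most of its gain lay in the upper classes. Hspe1, of the mitochondrial list, was at 340, 392, 496, 668 and 1020 CPM. The next counts were not made over all genes and describe these members only. Of the 28 cytosolic members 10 rose at every step and 13 were highest in the top class. In the top class 9 members were lower than in cells with 0. Among these 9, Bag1 was at 212, 202, 189, 184 and 195 CPM, Dnajb6 at 376, 358, 361, 284 and 326 CPM, and Ptges3 at 125, 145, 148, 193 and 103 CPM.

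Summed levels already differed between cells with exactly 1 Hspa1 UMI and cells with 0. Hsph1 was at 77.5 CPM (67.2 to 89.0) in cells with 1 UMI and 46.3 CPM (44.1 to 48.5) in cells with 0, Ifng at 187 CPM (171 to 205) and 68.1 CPM (65.5 to 70.8) in the same classes, and Fos at 39.7 CPM (32.4 to 48.2) and 15.8 CPM (14.5 to 17.1). Compared with negative cells, cells with 1 UMI had 3 cytosolic chaperones and 16 immediate early genes past 1.5-fold, a setting added after the data were seen. Over all positive cells those counts were 10 and 20. Such genes were also present outside cells. In heart barcodes below 100 UMIs Fos was at 37.4 CPM, Jun at 34.2, Nr4a1 at 98.4, Gadd45b at 253, Hsph1 at 65.4 and Dnajb1 at 105 CPM. In kept heart cells the same genes were at 23.2, 27.2, 59.6, 208, 64.4 and 106 CPM. Whether RNA carried over from outside adds to the class of 1 UMI was not tested.

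Single immediate early genes took different courses in the top class. Of 31 members 7 rose at every step and 13 were highest in the top class. In the top class 15 members were lower than in the class of 4 to 9 UMIs. These counts, and that of the NF-kB list below, were not made over all genes and describe the members only. Fos was at 15.8, 39.7, 53.2, 121 and 155 CPM over the 5 classes and Ifng at 68.1, 187, 275, 385 and 441 CPM, both highest in cells with 10 or more Hspa1 UMIs. Jun was at 20.4, 46.3, 61.7, 101 and 141 CPM, Nr4a1 at 47.6, 107, 141, 175 and 222 CPM, and Nr4a2 at 69.6, 107, 113, 126 and 144 CPM, so these also rose at every step. Gadd45b stood at 184, 352, 414, 469 and 364 CPM, Rel at 101, 151, 198, 251 and 144 CPM, and Nr4a3 at 79.4, 121, 128, 145 and 55.5 CPM, all lower in the top class than in the one before it. The immediate early sum was 6109, 7908, 8572, 9478 and 8786 CPM. The NF-kB sum was 1620, 2007, 2269, 2462 and 1906 CPM, and 0 of its 17 members were highest in the top class. The 21522-UMI cell held 34 of the Gadd45b and 18 of the Rel UMIs in the class of 4 to 9. Without it that class was at 428 CPM for Gadd45b (377 to 484), an interval that overlaps the top class (329 to 402), at 230 CPM for Rel (193 to 272) and 125 CPM for Nr4a3 (98.3 to 157), which do not overlap it, and at 2282 CPM for the NF-kB sum.

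**Figure D4:**
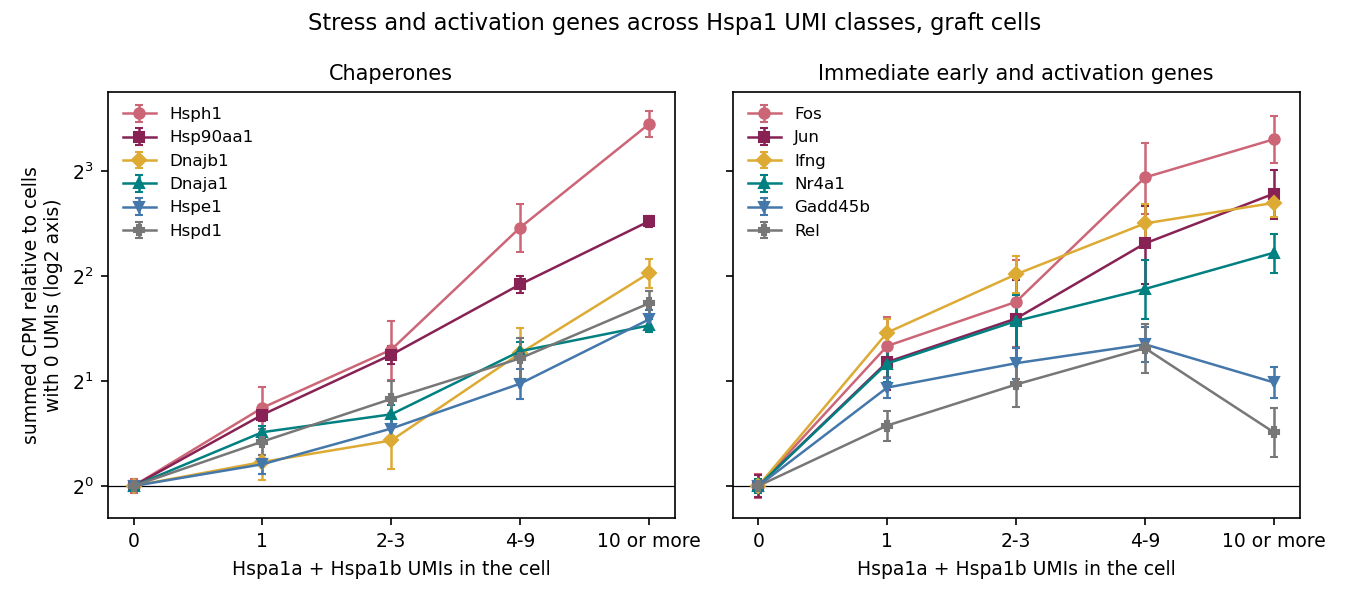
Summed CPM relative to cells with 0 Hspa1 UMIs, on a log2 axis, for 6 chaperones (left) and 6 immediate early or activation genes (right) across classes of summed Hspa1a and Hspa1b UMIs per graft cell, with 95% Poisson intervals scaled in the same way. Hsph1 reached 504 CPM and Hsp90aa1 2830 CPM in cells with 10 or more UMIs, whereas Gadd45b and Rel stood higher in the class of 4 to 9 UMIs than in the top class.

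The top class differed in further genes. Bcl2a1d, a BCL2 family survival gene and NF-kB target, was at 639, 550, 584 and 593 CPM in the lower 4 classes and at 240 CPM in cells with 10 or more Hspa1 UMIs, where it was detected in 71.6% of cells against 90.7% of negative cells. In the class of 4 to 9 UMIs, 82 Bcl2a1d UMIs came from the 21522-UMI cell, without which it was at 475 CPM. Ddit4 was at 30.0, 31.6, 31.9 and 34.3 CPM in the lower classes and at 123 CPM in the top class. The proliferation sum was 4211, 5256, 5137, 3536 and 6802 CPM and showed no single direction. Without the 69749-UMI cell the class of 4 to 9 UMIs was at 2669 CPM.

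The classes were of similar depth, with medians of 8247, 8072, 8830, 6972 and 8983 UMIs and mitochondrial shares between 3.09 and 3.38%. Monocyte markers summed to 352, 328, 308, 1028 and 261 CPM over the 5 classes. The value in cells with 4 to 9 UMIs was 391 CPM without the 21522-UMI cell. The sum was lowest in the class of 10 or more UMIs. Ctss and Cst3, which make up nearly all of it, were found in 82.6% and 60.7% of negative cells, so the sum does not measure monocyte content.

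The same genes were read in the 17 spleen cells that held an Hspa1 UMI. The cytosolic chaperones without the Hspa1 pair summed to 8851 CPM (8399 to 9322) in positive and 4830 CPM (4811 to 4848) in negative spleen cells. A single positive spleen cell held 43588 UMIs, 26.9% of that group, and without it the positive sum was 8393 CPM (7879 to 8932). Hsph1 was at 111 CPM (65.9 to 176) in positive and 35.0 CPM (33.5 to 36.6) in negative spleen cells, with a UMI in 11 of the 17 positive cells and at most 3 in any one. Immediate early genes summed to 3373 CPM in positive and 2823 CPM in negative spleen cells. Without the 43588-UMI cell their positive sum was 3677 CPM (3339 to 4039). All 38 Ifng UMIs of the positive spleen cells came from 1 cell. Nr4a1 UMIs came from 3 cells and Gadd45b UMIs from 3 cells, so no level is read from these genes.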

How the data were processed

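The deposited matrices of the 2 wild-type libraries list unnormalized UMI counts by gene and barcode, written by Cell Ranger 3.0.2 per the file headers. Cell Ranger 7.0.0, the mm10 build and Seurat 4.0.0 are listed in the submitters' processing notes. Per the labels' protocols, libraries came from Chromium 3' v3 chemistry, and the kit text speaks of nuclei. How intronic reads, or reads shared by Hspa1a and Hspa1b, were handled is not stated in those sources. The Ldha-/- library, whose matrix header names Cell Ranger 7.0.1, was not analysed here.

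Counts were summed over the cells of a group and scaled to CPM, over totals of 5226907 UMIs in positive cells, 37144753 in negative cells and 56018262 in spleen cells. A count of 0, which allows 3 counts, limits a gene to 0.574 CPM in positive and 0.0808 CPM in negative cells. CPM have exact Poisson intervals, CPM ratios exact conditional binomial intervals and shares exact (Clopper-Pearson) intervals, all at 95%. Thinning drew 1000 UMIs per cell (seed 20). Cells were not clustered, and doublets can remain. The functions were tested on simulated data. Sequences are from RefSeq (GRCm38.p6) and positions from GENCODE M21 on GRCm38, the assembly of mm10. Computations used Python 3.11.15, numpy 2.4.6, scipy 1.17.1 and pandas 2.3.3.

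Members, gene lists and rules were chosen with earlier results of these data known. Named genes were the 4 markers, the 12 highest and 12 lowest ratios at 50 CPM (leaving out unnamed, sex-linked, haemoglobin, immunoglobulin, receptor segment, ribosomal protein and mitochondrial genes), all cytosolic chaperones at 10 CPM, up to 4 members of each other list, and Ifng, Ldha, Il10, Tcf7, Gzmb, Gzmk, Itgae and Mki67. Other genes named were chosen after their values were seen. Alternatives changed the totals, thinning, depth weighting, filters, CPM floor, fold, pseudocount and UMI minimum, and left out single cells.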

Additional observations from a re-analysis of the deposited data

Results flagged for a closer look

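Barcodes outside the kept cells also carried Hspa1. Of 77 heart barcodes with more than 1 Lyz2 UMI, 40 held Hspa1a or Hspa1b (51.95%), against 11.8% of kept heart cells. Their median depth was 26551 UMIs, and after thinning to 1000 UMIs the shares were 9.09% (3.73 to 17.8%) in them and 4.01% in kept cells. Heart barcodes below 100 UMIs held Hspa1 at 218.5 CPM, against 114 CPM in kept heart cells. The 50 heart barcodes with over 10% mitochondrial UMIs held it at 1016 CPM, from 7 barcodes. These were singled out because signal appeared in barcodes that the comparisons did not use. The source of this signal was not tested.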

How the results depend on the processing

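The counts moved most with the floor, the fold and the thinning. Counts below are genes at least 1.5-fold higher, then lower, in positive cells, against 57 and 4 as reported. They were 88 and 13 with the mean of per-cell CPM, 137 and 87 with cells thinned to 1000 UMIs (61.2% of calls higher, against 93.4% as reported), 90 and 15 with at least 2 Hspa1 UMIs, 109 and 12 at a floor of 20 CPM and 524 and 152 at a floor of 1 CPM. The lower count was 2 with negative cells weighted by depth, 2 with a pseudocount of 5 and 8 without cycling cells. A 2-fold limit gave 16 and 0, with 2 chaperones and 11 immediate early genes. Cells with exactly 1 Hspa1 UMI, a setting chosen after seeing the data, gave 36 higher genes and 3 chaperones. The share of positive cells was 4.01% after thinning and 5.64% at a minimum of 2 UMIs. The chaperone count stayed within 1.5 times of 10 in 14 settings and the immediate early count within 1.5 times of 20 in 15. Leaving out the deepest positive cell, another setting added later, gave 53 and 2, with 10 chaperones and 20 immediate early genes. Leaving out the 21522-UMI cell, chosen as the positive cell with most UMIs of the monocyte marker Cst3, gave 56 and 4, with 9 and 20. Of 154 named genes, 66 were past 1.5-fold, of which 55 still were without the positive cell holding most UMIs of the gene, 52 with a pseudocount of 5, 43 with exactly 1 Hspa1 UMI, 57 after thinning, 57 with negative cells weighted by depth and 59 without the deepest positive cell. The log2 ratio of Cdc20 was -0.81 after thinning, and that of Klrc1 was -0.47 after thinning and -0.0405 without cells over 3 times the median depth. The cause was not tested. No paired analysis was possible because each tissue has 1 library and both cell groups come from the same one. No library could be left out for the same reason. After thinning, most genes rest on few UMIs per group.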
